A study of Mus musculus with 10 samples.

Results

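The 10 genes described here encode chains of fibrillar, type VI and type XIV collagens: Col1a1 and Col1a2 (type I), Col3a1 (type III), Col5a1, Col5a2 and Col5a3 (type V), Col6a1, Col6a2 and Col6a3 (type VI) and Col14a1 (type XIV). They were chosen by symbol from the 14623 genes of the table, and all 10 were found and detected. They were measured by Seq-Well S3, a single-cell RNA-seq method that captures transcripts at their 3′ end in small wells and counts molecules by unique molecular identifiers (UMIs), in the stromal vascular fraction of inguinal white adipose tissue of lean mice aged 7 weeks. The fraction is what remains of digested fat once the floating adipocytes are taken off, so mature adipocytes were not sampled. The groups were Bbs8 KO (Bbs8-/-, without the gene in every cell of the body) and Bbs8 WT (Bbs8+/+ littermates). BBS8 is a subunit of the BBSome, a complex that helps to move proteins back out of primary cilia. Each genotype was 1 mouse according to the series text and was deposited as 5 barcode sets.

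As the series text gives 1 mouse per genotype, the sets were treated as technical portions of it, and no test between genotypes or cell classes was made and no p-value is given. Levels are UMIs per 1000000 UMIs of the same cells (CPM). Ratios are on the log2 scale after adding 5 CPM, and brackets behind a ratio hold its 95% interval for counting error alone. UMIs count molecules and were not scaled by gene length, so levels are compared between cells within 1 gene and not between genes. The 2 set codes of each genotype (KO5 and KO6, WT3 and WT4) are not explained in the labels. The methods give 2 arrays per sample, with amplified material pooled within each, the same number as the codes, but no source used here states that the codes are arrays. Values by code are therefore given beside several of the differences between the mice, and values by set beside others.

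Fibrillar collagens are secreted as procollagens of 3 chains, trimmed outside the cell and assembled into the fibrils that give connective tissue its tensile strength. Type I and type III chains form the bulk of such fibrils, and type V chains sit in their core and set where fibrils start and how thick they grow. Type VI collagen forms beaded microfilaments next to cells and basement membranes, and type XIV collagen is not fibrillar itself but binds to the surface of fibrils. In white adipose tissue these chains come mainly from fibroblast-like stromal cells, among them the adipocyte precursors known as P1, P2 and P3. P1 cells (Dpp4+) are the least committed, P2 cells (Icam1+) are preadipocytes and P3 cells (F3+, which encodes CD142) are a regulatory population.

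In the GRCm38 build, Col3a1 (chr1:45311538-45349706, 51 exons) and Col5a2 (chr1:45374321-45503282, 54 exons) lie next to each other on opposite strands of chromosome 1, which also carries Col6a3 (chr1:90765923-90843971, 44 exons). Col6a2 (chr10:76595762-76623630, 28 exons) and Col6a1 (chr10:76708792-76726168, 35 exons) lie near each other on chromosome 10. The remaining genes are Col1a1 (chr11:94936224-94953042, 51 exons), Col1a2 (chr6:4504814-4541544, 52 exons), Col5a1 (chr2:27886425-28039514, 66 exons), Col5a3 (chr9:20770050-20815067, 67 exons) and Col14a1 (chr15:55307750-55520803, 48 exons). The GENCODE vM21 annotation places genes of the opposite strand over Col5a1 (2 genes), Col5a3 (1 gene) and Col14a1 (3 genes), and whether strand was used in counting is not given in the sources used here, so reads of these partners could not be told apart. It also places 1 gene of the same strand over each of Col1a2, Col3a1, Col5a2 and Col6a3, from which strand could not separate them.

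RefSeq promoter sequence was at hand for 7 of the 10 genes. Printed are the 250 bases before the RefSeq start site of 4 of them, namely Col3a1, the one of the 10 with the most UMIs, Col5a1 and Col6a3, whose P1-like levels were the furthest apart between the mice, and Col5a3, the chain furthest below its P2-like level in P1-like and P3-like cells. The windows are chr1:45311288-45311537 (plus strand), chr2:27886175-27886424 (plus), chr1:90843972-90844221 (minus) and chr9:20815068-20815317 (minus) of GRCm38.p6, read 5′ to 3′ on the strand of the gene. Capitals mark the motifs searched on both strands, which were CCAAT (or ATTGG), the GC box GGGCGG (or CCGCCC) and TATAAA (or TTTATA).
Col3a1: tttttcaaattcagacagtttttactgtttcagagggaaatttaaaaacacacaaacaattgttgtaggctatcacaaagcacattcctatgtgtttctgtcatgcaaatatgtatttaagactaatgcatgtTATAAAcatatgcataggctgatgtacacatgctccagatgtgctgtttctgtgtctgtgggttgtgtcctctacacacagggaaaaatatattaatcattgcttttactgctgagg
Col5a1: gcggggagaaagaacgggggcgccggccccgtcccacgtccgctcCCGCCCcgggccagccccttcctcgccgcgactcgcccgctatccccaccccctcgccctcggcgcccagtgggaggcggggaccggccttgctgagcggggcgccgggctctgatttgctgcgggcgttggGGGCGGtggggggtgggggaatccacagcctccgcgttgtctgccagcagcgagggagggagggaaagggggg
Col6a3: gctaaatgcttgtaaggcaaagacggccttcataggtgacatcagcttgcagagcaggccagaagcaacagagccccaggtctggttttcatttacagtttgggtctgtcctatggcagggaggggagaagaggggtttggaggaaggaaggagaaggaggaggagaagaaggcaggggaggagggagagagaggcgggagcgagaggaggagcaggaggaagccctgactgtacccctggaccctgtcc
Col5a3: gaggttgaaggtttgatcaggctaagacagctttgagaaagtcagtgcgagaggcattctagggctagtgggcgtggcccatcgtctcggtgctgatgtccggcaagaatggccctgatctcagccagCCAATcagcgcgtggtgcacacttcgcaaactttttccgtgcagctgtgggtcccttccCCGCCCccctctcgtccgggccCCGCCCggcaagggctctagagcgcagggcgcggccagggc

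The Col3a1 window was AT-rich (35.2% G and C) with 1 TATAAA at base -117 before the start. The Col5a1 window had 76.4% G and C and 2 GC boxes, at -205 and -73. Col5a3 had 1 CCAAT at -122 and 2 GC boxes at -63 and -41 (62.8% G and C), and none of the 3 motifs was in the Col6a3 window (57.2%). Over the 27025 RefSeq promoters of the same length, 34.5% held a CCAAT, 32.9% a GC box and 13% a TATAAA, and the median G and C content was 52%. These matches describe letters only, and no motif was in all 4 windows.

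Depth was shallow and unequal between the mice. Bbs8 KO had 8985 cells and 3144195 UMIs and Bbs8 WT 1929 cells and 715989 UMIs, with medians of 251 and 278 UMIs per cell, and single sets held 196 to 2005 cells. The series' own knockout gene (listed as Ttc8) had 0 UMIs in Bbs8 KO versus 5 in Bbs8 WT, too few to check the labels further. Cell classes were rebuilt by clustering without the 10 collagen genes and are named by other markers, with the ending "-like". P1-like cells numbered 471 in Bbs8 KO versus 219 in Bbs8 WT, P2-like cells 548 and 284, and P3-like cells 156 and 100. A further stromal cluster of 1141 and 172 cells had few subtype markers and is called marker-poor stromal. Its leading genes began with Car3, which is on the marker list used for adipocytes, and included the pan-stromal marker Lum. All 8 pan-stromal markers were detected in each of these 4 classes in both mice, but the marker-poor cluster was the least stromal of them. Only 4 of the 8 were raised in it over the other cells, with a mean log2 fold of 0.591 that was just past the naming threshold of 0.5, compared with 8 of 8 and 1.575 or more in the P1-, P2- and P3-like clusters. Of the 10847 distinct barcodes, 36 occurred in more than 1 set.

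The 10 collagen genes took a large share of the stromal transcripts. They made up 6.68% of all UMIs of P1-like cells in Bbs8 KO versus 6.92% in Bbs8 WT, 7.73% and 8.32% in P2-like cells, and 7% and 7.5% in P3-like cells. In T- and B-like lymphocytes, which are not known to make these collagens, they made up 0.161% in Bbs8 KO versus 0.49% in Bbs8 WT. This level is taken as the floor that free RNA gives in every cell. The floor itself was unequal, at 1607 CPM in Bbs8 KO (sets 1360 to 2170) versus 4900 CPM in Bbs8 WT (sets 2490 to 11100), and without the highest set, WT3_p1 with 21 lymphocytes, the Bbs8 WT value was 4320 CPM.

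P1-, P2- and P3-like cells stood 41.5-, 48.1- and 43.6-fold above the lymphocytes in Bbs8 KO and 14.1-, 17- and 15.3-fold in Bbs8 WT. Marker-poor stromal cells were 21.9-fold above them in Bbs8 KO versus 12.2-fold in Bbs8 WT. The other classes were far lower and did not stand in the same order in the mice. In Bbs8 WT, endothelial-like (0.826-fold), macrophage-like (0.91-fold), monocyte-like (1.01-fold) and epithelial-like cells (0.734-fold) were at or near the lymphocyte level. In Bbs8 KO the same classes were 1.7-, 4.22-, 4.13- and 6.54-fold above it. Clusters that could not be named, 2152 cells in Bbs8 KO versus 260 in Bbs8 WT, were 11.1- and 4.98-fold above the lymphocytes. The set KO6_p2 alone gave 856 of these cells, and a single unnamed cluster held 734 cells of Bbs8 KO versus 3 of Bbs8 WT.

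**Figure D1:**
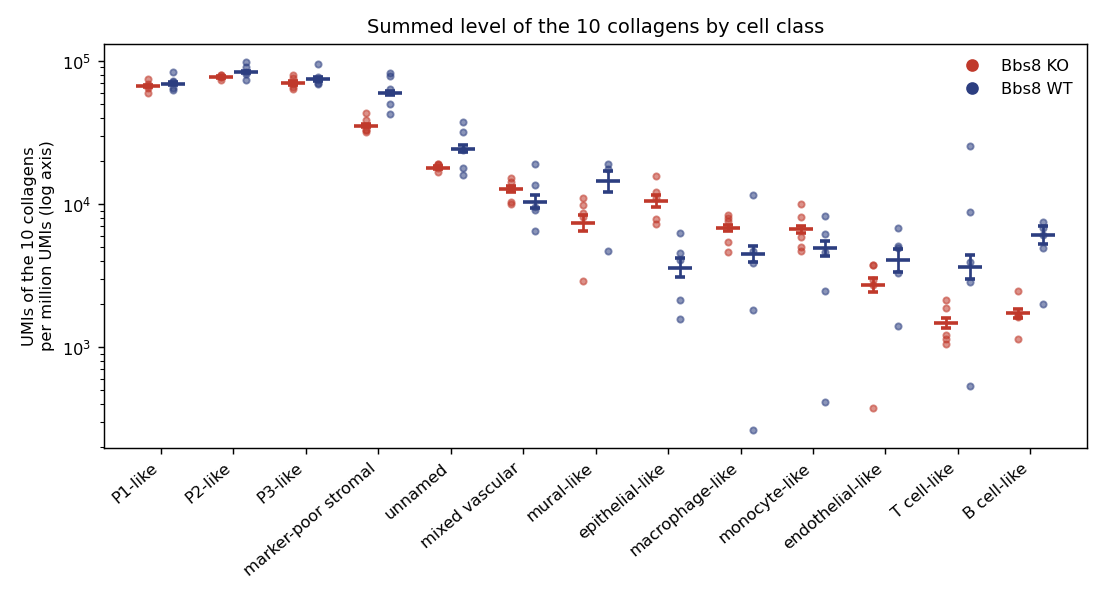
Summed level of the 10 collagen genes in each cell class (CPM, log axis), with 1 point per barcode set that had such a UMI and a bar at the value of all cells of the mouse with its Poisson 95% interval. P1-, P2- and P3-like cells lie between 66755 and 83229 CPM, T cell-like cells at 1483 CPM (Bbs8 KO) and 3633 CPM (Bbs8 WT) and B cell-like cells at 1728 and 6110 CPM.

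Nearly every stromal cell carried collagen transcripts. With each cell thinned to 200 UMIs, 99.8% of P1-like cells in Bbs8 KO versus 99.5% in Bbs8 WT had at least 1 UMI of the 10 genes, and all P2- and P3-like cells had (480 and 136 cells of Bbs8 KO, 266 and 91 of Bbs8 WT). Of the lymphocytes, 17.4% had one in Bbs8 KO versus 29.6% in Bbs8 WT (25.5% and 31.6% without thinning). The median thinned cell held 12 collagen UMIs in P1-like cells of both mice, 14 in Bbs8 KO versus 15 in Bbs8 WT among P2-like cells, and 0 in lymphocytes. P1-like cells held on average UMIs of 4.24 different members in Bbs8 KO versus 3.88 in Bbs8 WT, P2-like cells 4.49 and 4.52, P3-like cells 4.29 and 3.92, and marker-poor stromal cells 3.17 and 3.81. Thinning left out the cells under 200 UMIs, 68 and 24 P1-like cells, 590 and 66 lymphocytes, and 418 of 1141 and 47 of 172 marker-poor stromal cells, a larger part in Bbs8 KO.

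The make-up of the collagen transcripts was led by types I and III in each stromal subtype, with differences in the lesser chains. In P2-like cells, Col3a1, the only type III chain, gave 46.4% of the collagen UMIs in Bbs8 KO versus 47.5% in Bbs8 WT, type I chains 35.7% and 36.2%, type V chains 9.25% and 8.9%, type VI chains 7.94% and 6.97%, and Col14a1 0.73% and 0.439%. P1-like cells had less type V (6.99% and 6.69%) and type VI (6.07% and 5.09%) and more Col14a1 (2.7% and 2.33%). In P3-like cells type I chains gave 41.9% in Bbs8 KO versus 49.1% in Bbs8 WT.

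Mural-like cells (pericytes and smooth muscle cells by their markers, 68 cells in Bbs8 KO versus 26 in Bbs8 WT) had little collagen, and in the cluster used here more of it was type VI. Their summed level was 7421 CPM in Bbs8 KO, 4.62-fold above the lymphocytes, and 14379 CPM in Bbs8 WT, 2.93-fold. Type VI chains gave 55 of 238 collagen UMIs in Bbs8 KO, or 23.1% (exact binomial 95% interval 17.9 to 29), and 24 of 143 in Bbs8 WT, or 16.8% (11.1 to 23.9). In the lymphocytes of the same mice the share was 9.48% (7.96 to 11.2) and 7.37% (4.73 to 10.9). Among single chains, Col6a3 was 12.8-fold above the lymphocyte level in mural-like cells of Bbs8 KO (22 UMIs) and 7.11-fold in Bbs8 WT (10 UMIs), whereas Col1a1 was 2.82- and 1.31-fold above it. Col14a1 had 2 and 3 UMIs. Type V chains were raised as well. In the Bbs8 KO sets they were at 2015, 1988, 325, 541 and 1265 CPM in mural-like cells and at 205, 152, 153, 85 and 224 CPM in lymphocytes. In WT4_p2, Col5a3 and Col6a3 were both at 1038 CPM in mural-like cells, against 127 and 191 CPM in lymphocytes.

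The type VI UMIs of mural-like cells were spread over 5 of 5 sets in Bbs8 KO, with 18, 8, 4, 9 and 16 UMIs. In Bbs8 WT they came from 3 sets, and WT4_p2 alone held 17 of the 26 cells and 18 of the 24 UMIs. The share without that set was 25%. With mural cells taken as the whole mural cluster of the coarser clustering, which also carried endothelial genes, it was 8.5% in Bbs8 KO versus 9.92% in Bbs8 WT. With cells called from their own markers it was 11.1% and 10.9%. Without integration it was 17.4% in Bbs8 KO. In the whole coarser cluster the share in Bbs8 KO was thus below that of the lymphocytes. Its cells that were not mural-like are called mixed vascular. The excess of type VI depended on how the cells were called, and the finer cluster was chosen after both clusterings had been seen.

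**Figure D2:**
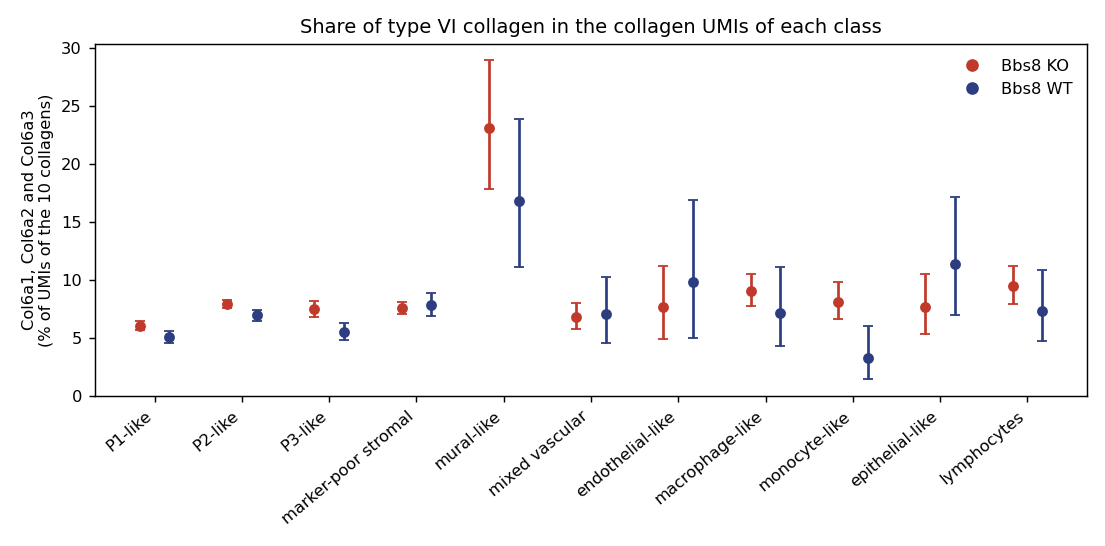
Share of type VI chains among the UMIs of the 10 collagen genes (percent) in each cell class of Bbs8 KO and Bbs8 WT, with exact binomial 95% intervals for counting error. Mural-like cells have 23.1% and 16.8%, and P1-, P2- and P3-like cells 5.09% to 7.94%.

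The first comparison asked whether the precursor subtypes carry the collagen genes at different levels. Between P1-like and P2-like cells, 6 of the 10 genes differed by a log2 ratio of at least 0.5 (1.41-fold) the same way in both mice, against 31.7% of the 542 genes with at least 50 UMIs. Of the 6, Col14a1 was higher in P1-like cells and Col5a2, Col5a3, Col6a1, Col6a2 and Col6a3 were higher in P2-like cells. The median ratio of the 10 genes was -0.409 in Bbs8 KO versus -0.502 in Bbs8 WT, beside 0.000665 and -0.0475 over all counted genes. Type I and III chains differed less, and the summed level was lower in P1-like cells by -0.21 in Bbs8 KO (-0.24 to -0.18) versus -0.27 in Bbs8 WT (-0.31 to -0.22). With TMM scaling, which shifted the ratios by 0.13 over both mice, 3 genes were past the fold (Col14a1, Col5a3 and Col6a2), and 2 were with cells called from their own markers (Col14a1 and Col5a3).

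Col14a1, the fibril-surface collagen, had the highest level in P1-like cells. In the sets of Bbs8 KO (KO5_p2, KO5_p3, KO6_p1, KO6_p2 and KO6_p3) it was at 1694, 1593, 1790, 2261 and 1716 CPM in P1-like cells and at 665, 667, 666, 347 and 416 CPM in P2-like cells. In those of Bbs8 WT (WT3_p1, WT3_p2, WT3_p3, WT4_p2 and WT4_p3) it was at 2053, 1164, 931, 1689 and 1694 CPM in P1-like and 629, 454, 0, 229 and 493 CPM in P2-like cells. No P2-like set reached the lowest P1-like set in either mouse. The ratio was 1.67 in Bbs8 KO (1.41 to 1.94) versus 2.12 in Bbs8 WT (1.67 to 2.63).

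P3-like cells lay between the other subtypes for Col14a1, at 899 CPM in Bbs8 KO versus 857 CPM in Bbs8 WT. They were below P1-like cells in 5 of 5 sets of Bbs8 KO and 3 of 5 of Bbs8 WT, and above P2-like cells in 5 of 5 sets of both mice. The P3-like to P2-like ratio was 0.67 in Bbs8 KO (0.25 to 1.08) versus 1.22 in Bbs8 WT (0.60 to 1.85). In Bbs8 KO it was 0.38 once the cells with the highest doublet scores were left out. With cells thinned to 200 UMIs, 29% of P1-like cells in Bbs8 KO (24.6 to 33.7) versus 27.2% in Bbs8 WT (21.1 to 34) had a Col14a1 UMI, compared with 8.33% and 6.77% of P2-like cells, 14% and 13.2% of P3-like cells, and 0.702% and 1.85% of lymphocytes.

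**Figure D3:**
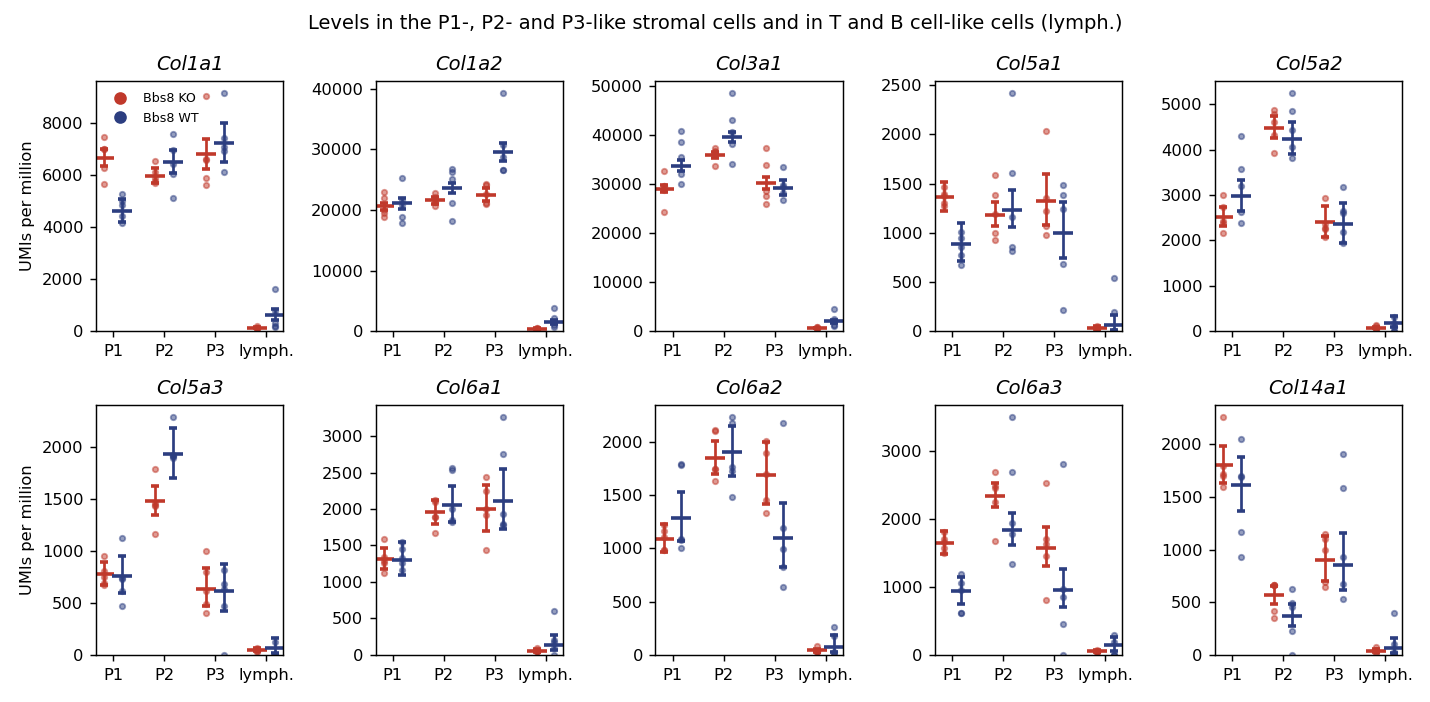
Level of each of the 10 collagen genes (CPM) in P1-, P2- and P3-like cells and lymphocytes (lymph.), 1 panel per gene with its own axis, with 1 point per barcode set and a bar at the value of all cells of the mouse with its Poisson 95% interval. Col14a1 is at 1801 CPM in P1-like and 564 CPM in P2-like cells of Bbs8 KO, and Col5a3 at 774 and 1478 CPM.

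Among the type V chains, Col5a3 was the one furthest apart. It was at 945, 808, 746, 692 and 671 CPM in P1-like cells of the Bbs8 KO sets and at 1433, 1463, 1441, 1158 and 1789 CPM in their P2-like cells. In Bbs8 WT it was at 1126, 613, 465, 742 and 732 CPM in P1-like and 1886, 1907, 2288, 1919 and 1905 CPM in P2-like cells. The groups did not overlap in either mouse, and the ratios were -0.93 (-1.19 to -0.68) and -1.34 (-1.74 to -0.97). Col5a2, the usual partner of Col5a1 in type V trimers, was lower in P1-like cells by -0.83 in Bbs8 KO (-0.97 to -0.69) versus -0.51 in Bbs8 WT (-0.72 to -0.30), in 5 of 5 and 4 of 5 sets. Col5a1 did not share this pattern, with 0.20 in Bbs8 KO (-0.02 to 0.42) versus -0.47 in Bbs8 WT (-0.86 to -0.09).

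The 3 type VI chains were all lower in P1-like than in P2-like cells. The ratios in Bbs8 KO and Bbs8 WT were -0.57 and -0.65 for Col6a1, -0.76 and -0.56 for Col6a2, and -0.51 and -0.98 for Col6a3, whose long chain carries most of the interactions of the trimer. Summed over the chains, type VI was at 4049 and 6138 CPM in P1-like and P2-like cells of Bbs8 KO and at 3523 and 5797 CPM in those of Bbs8 WT, with P1-like below P2-like in 5 of 5 sets of each mouse. Col3a1 was lower in P1-like cells in all 10 sets, by -0.31 in Bbs8 KO versus -0.23 in Bbs8 WT. Col1a2 ratios were -0.07 and -0.16, and those of Col1a1 had opposite signs in the mice, 0.16 (0.06 to 0.26) and -0.49 (-0.66 to -0.33).

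**Figure D4:**
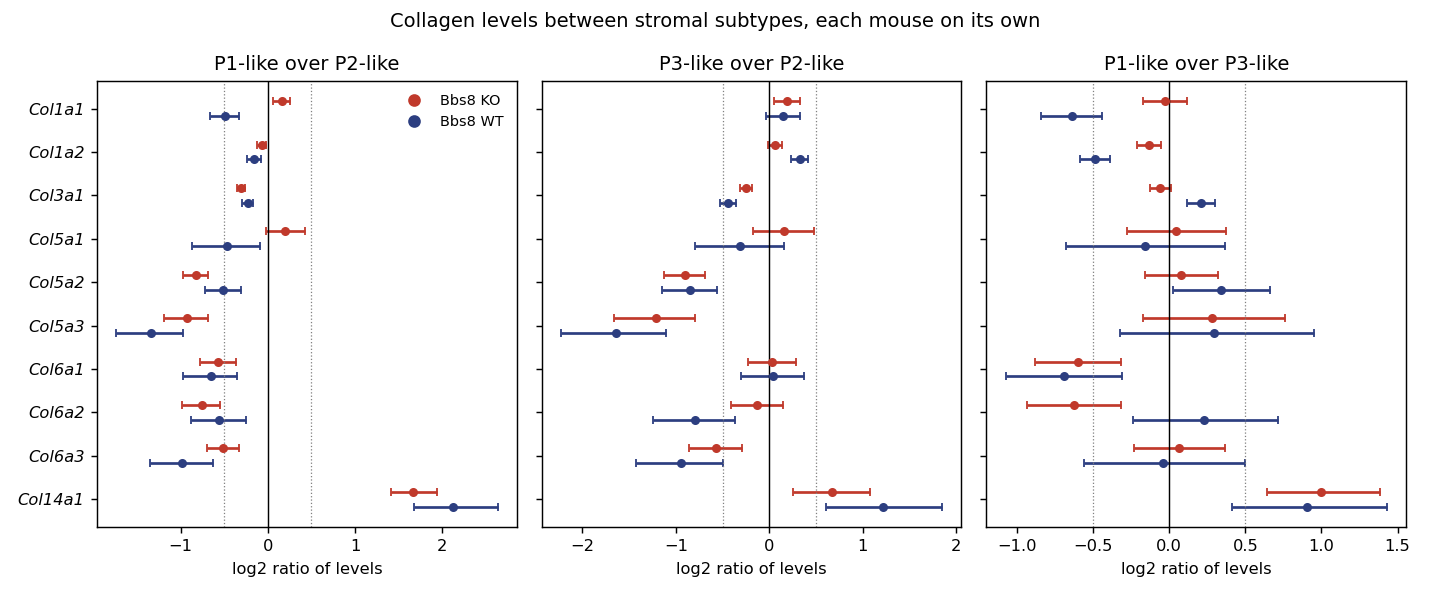
Log2 ratio of each collagen gene for P1-like over P2-like, P3-like over P2-like and P1-like over P3-like cells in Bbs8 KO and Bbs8 WT, with 95% intervals for counting error and dotted lines at 0.5 either way. Col14a1 is above 0 in all 3 panels, and Col5a2 and Col5a3 are below 0 in the first 2.

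Between P3-like and P2-like cells 4 of the 10 genes were past the fold in both mice, against 33.6% of 408 genes. These were Col14a1, given above, Col5a2 (-0.90 and -0.85), Col5a3 (-1.21 and -1.64) and Col6a3 (-0.57 and -0.94). Col5a2 and Col5a3 were lower in P3-like cells in 5 of 5 sets of each mouse, while Col6a3 was lower in 3 of 5 and 4 of 5. Col6a1 was level, with 0.03 (-0.23 to 0.29) in Bbs8 KO versus 0.04 (-0.30 to 0.37) in Bbs8 WT. The Col5a2 ratio rested on clusters, since with cells called from their own markers it was -0.03 in Bbs8 KO versus 0.12 in Bbs8 WT, and that of Col5a3 was then -0.34 and -0.71. The median over the 10 genes was -0.0497 in Bbs8 KO versus -0.375 in Bbs8 WT, beside -0.105 and -0.0884 over all counted genes.

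Between P1-like and P3-like cells 2 of the 10 genes were past the fold in both mice, against 29.6% of 314 genes. They were Col14a1, with 1.00 (0.64 to 1.38) and 0.91 (0.42 to 1.43), and Col6a1, with -0.60 (-0.88 to -0.32) and -0.69 (-1.08 to -0.31). Col6a2 was -0.63 in Bbs8 KO versus 0.23 in Bbs8 WT, and Col1a1 was -0.03 in Bbs8 KO versus -0.64 in Bbs8 WT. The count of 2 was 1 with TMM or DESeq2 scaling, with cells called from markers and with at least 200 genes per cell. It was 5 in clusters made without integration, but these had no P2-like cluster. Their P3-like cluster held 1427 cells, against 256 in the main clustering, so the 5 is not a like comparison.

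The second comparison set Bbs8 KO against Bbs8 WT within each subtype. In P1-like cells 3 of the 10 genes were past the fold, against 35.2% of 886 genes, and they were the same 3 whose sets did not overlap between the mice, against 6.43%. Col1a1, Col5a1 and Col6a3 were higher in Bbs8 KO. The median ratio was 0.0206 for the 10 genes and -0.0216 for all genes, and the summed level differed by -0.05 (-0.09 to -0.01). The direction of the sum was not stable, since it was 0.275 in clusters made without integration and ran from -0.1179 to 0.0045 as single sets were left out.

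Col6a3 had the largest of these differences. In P1-like cells it was at 1654, 1572, 1704, 1799 and 1499 CPM in the Bbs8 KO sets and at 1192, 613, 620, 947 and 1053 CPM in the Bbs8 WT sets, a ratio of 0.81 (0.49 to 1.16). By set code it was at 1615 CPM in KO5 and 1660 in KO6, and at 845 in WT3 and 985 in WT4. A Col6a3 UMI was found in 24.1% of thinned P1-like cells in Bbs8 KO (20 to 28.5) versus 17.9% in Bbs8 WT (12.8 to 24.1), intervals that overlap. The ratio was 0.34 in P2-like cells (0.13 to 0.56), where the sets overlapped.

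Col5a1, a core chain of type V collagen, was at 1398, 1375, 1470, 1269 and 1302 CPM in P1-like cells of the Bbs8 KO sets and 861, 674, 776, 947 and 1007 CPM in the Bbs8 WT sets. All Bbs8 KO sets were above all Bbs8 WT sets, with a ratio of 0.61 (0.27 to 0.97). The share of thinned P1-like cells with a Col5a1 UMI was 24.3% in Bbs8 KO (20.2 to 28.8) versus 11.3% in Bbs8 WT (7.21 to 16.6).

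Col1a1, which gives most of the chains of a type I trimer, was at 6301, 5675, 7009, 7474 and 7002 CPM in the Bbs8 KO sets and 5032, 4167, 5274, 4454 and 4852 CPM in the Bbs8 WT sets, a ratio of 0.53 (0.38 to 0.68). Its partner Col1a2 was -0.03 (-0.11 to 0.04). The UMI ratio of Col1a1 to Col1a2 in P1-like cells was therefore 0.325 in Bbs8 KO (0.307 to 0.344) versus 0.22 in Bbs8 WT (0.198 to 0.243), whereas in P2-like cells it was 0.277 in both mice. In P3-like cells it was 0.302 (0.274 to 0.333) and 0.245 (0.218 to 0.275) and in marker-poor stromal cells 0.322 and 0.275, with intervals that overlap in both classes. In mixed vascular cells it was 0.295 (0.248 to 0.351) and 0.142 (0.0765 to 0.244). In lymphocytes it was 0.302 (0.241 to 0.375) and 0.394 (0.265 to 0.576), the other way round but with intervals that overlap. Both genes were counted in the same cells, so the total UMIs of a mouse cancel in this ratio.

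**Figure D5:**
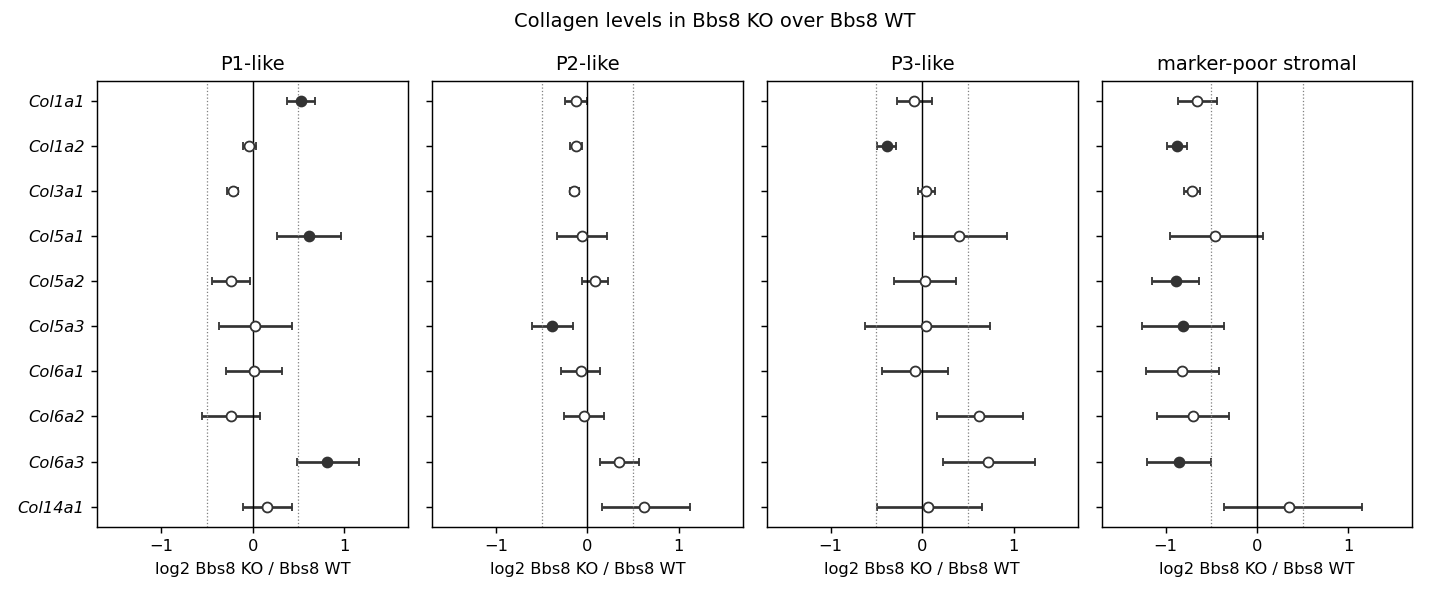
Log2 ratio of Bbs8 KO over Bbs8 WT for each collagen gene in P1-, P2- and P3-like and marker-poor stromal cells, with 95% intervals for counting error. Filled points are genes whose barcode sets do not overlap between the mice, and dotted lines stand at 0.5 either way. Col1a1, Col5a1 and Col6a3 lie above 0.5 in P1-like cells, and most genes lie below 0 in marker-poor stromal cells.

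These 3 differences were sensitive to the cell calls and to the fold chosen. When the collagen genes were allowed into the clustering, Col1a1 was at 0.42 and Col5a1 at 0.48, and Col1a1 was at 0.49 without the set KO6_p2. Over the other ways of calling and scaling the 3 genes stayed higher in Bbs8 KO, with Col6a3 between 0.79 and 1.37. Markers of other cell types also differed between the mice in P1-like cells. The summed endothelial markers were at 223 CPM in Bbs8 KO versus 40.5 CPM in Bbs8 WT, macrophage markers at 316 and 50.6 CPM, T cell markers at 530 and 142 CPM and B cell markers at 665 and 132 CPM, while pan-stromal markers were at 25200 and 30300 CPM. Their part in the collagen values was not tested. The median depth was 352 and 336 UMIs per cell.

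In P2-like cells 1 of the 10 genes was past the fold, against 37.5% of 1295 genes, and 1 had sets that did not overlap, against 6.1%. The first was Col14a1, with 0.62 (0.16 to 1.12), which was 0.28 without the set WT4_p2. By code it was at 666 CPM in KO5, 501 in KO6, 447 in WT3 and 321 in WT4. The other was Col5a3, lower in Bbs8 KO by -0.38 (-0.61 to -0.16), with sets of 1158 to 1789 CPM in Bbs8 KO and 1886 to 2288 CPM in Bbs8 WT. The other 8 genes lay between -0.14 and 0.34, and the median was -0.0669 beside 0.00346 for all genes.

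In P3-like cells, the smallest class, 2 of the 10 genes were past the fold, against 29.8% of 262 genes. Col6a2 was at 0.62 (0.16 to 1.10) and Col6a3 at 0.71 (0.23 to 1.23), and the sets of both overlapped. Each rests on single sets. Col6a2 was 0.39 without WT4_p2, and Col6a3 was 0.46 without WT4_p3 and 1.19 without WT3_p1. In clusters made without integration Col6a2 was 0.07, but there the P3-like cluster held 1427 cells and no P2-like cluster was found. That value is therefore not for the same class. By code Col6a2 was at 1762 CPM in KO5, 1640 in KO6, 1359 in WT3 and 971 in WT4, and Col6a3 at 2068, 1284, 1359 and 765 CPM. In Bbs8 WT the sets of Col6a3 ran from 0 to 2800 CPM. Col1a2 was the 1 gene without overlap, against 1.53%, at 24321, 21060, 22729, 21183 and 24180 CPM in Bbs8 KO and 39353, 26539, 28696, 26599 and 30754 CPM in Bbs8 WT, a ratio of -0.39 (-0.49 to -0.29). The median was 0.0451 beside -0.036 for all genes.

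Marker-poor stromal cells had less collagen in Bbs8 KO. The summed level was 35250 CPM in Bbs8 KO versus 59640 CPM in Bbs8 WT, a ratio of -0.76 (-0.82 to -0.70), and single genes ran from -0.89 for Col5a2 to -0.46 for Col5a1, with Col14a1 at 0.35 (-0.36 to 1.14). The summed sets overlapped between the mice (31768 to 43029 CPM and 42233 to 82712 CPM), whereas those of Col1a2, Col5a2, Col5a3 and Col6a3 did not. The 4 of 10 genes without overlap compare with 12.3% of the 961 genes with at least 50 UMIs in these cells, and the 8 of 10 past the fold with 56.5%. The median ratio was -0.763 for the 10 genes and 0.0431 for all. By code the summed level was 32972 CPM in KO5, 37308 in KO6, 77307 in WT3 and 45255 in WT4, and the ratio was -0.57 with TMM and -0.60 with DESeq2 scaling. In the same cells the pan-stromal markers were at 11900 CPM in Bbs8 KO versus 22500 CPM in Bbs8 WT, T cell markers at 1420 and 224 CPM and B cell markers at 1530 and 448 CPM, and their part in the difference was not tested.

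Over all stromal cells none of the 10 genes was past the fold, against 35.3% of 4199 genes, and 4 had sets that did not overlap, against 9.07%. The 4 were Col1a2 (-0.39), Col3a1 (-0.34), Col5a3 (-0.42) and Col6a1 (-0.31), all lower in Bbs8 KO. The summed level was 56702 CPM in KO5, 62236 in KO6, 79611 in WT3 and 71213 in WT4. Marker-poor cells are a larger part of the stromal cells in Bbs8 KO, as the cell numbers above show. Restricted to P1-, P2- and P3-like cells, the summed ratio was -0.09 in place of -0.31. It was also smaller with other calls of the cells, at -0.0724 without integration, -0.1018 with cells called from markers and -0.1173 with the collagens in the clustering. The clusterings without integration and with the collagens had no marker-poor stromal cluster. Their values are thus no separate check beside the restriction to P1-, P2- and P3-like cells. The scaling also mattered here, since TMM shifted the ratios over all stromal cells by -0.19 and DESeq2 size factors by -0.21, which brought Col6a3 from 0.20 to 0.01 and -0.01 and turned Col14a1 from 0.12 to -0.07 and -0.09. With either of them 4 of the 10 genes were past the fold. In P1- to P3-like cells together, Col6a3 was at 0.52 (0.36 to 0.69) and at 0.36 and 0.35 with those scalings.

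Other genes of collagen biology were counted from lists chosen by function. Of the collagen-processing enzymes and chaperones, 13 were counted between P1-like and P2-like cells, and 2 were higher and 1 lower in P1-like cells past the fold in both mice. Over all counted genes 31.7% were past the fold in this comparison, more than in this list. Pcolce2, an enhancer of procollagen C-proteinase, had ratios of 2.40 and 1.79, and Bmp1, that proteinase, had 0.744 and 0.827. The lysyl oxidase-like enzyme Loxl2 was lower, at -0.50 and -0.61. Of the collagen receptors 5 were counted, with 3 higher in P1-like cells (Antxr2 at 1.37 and 1.5, Ddr2, a receptor of fibrillar collagens, at 0.709 and 0.726, and Antxr1 at 0.612 and 0.602) and 1 lower (Cd36, at -1.99 and -2.35).

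Of 5 other collagens counted, 4 were lower in P1-like cells and none higher, with a median ratio of -2.16, against 31.7% of all genes past the fold either way. Several are basement membrane collagens. They were Col18a1 (-3.28 and -3.11), Col15a1 (-3.15 and -3.03), Col4a1 (-2.06 and -2.26) and Col4a2 (-2.30 and -1.80). These ratios are a description and no independent evidence, since only the 10 collagen genes were kept out of the clustering. Col15a1 was a marker by which P2-like cells were named, and Col15a1, Col18a1 and Postn were among the leading genes of that cluster. Fibril-associated partners split, with 3 of 9 higher in P1-like cells and 3 lower. Mfap5, a microfibril protein, was at 1.87 and 1.10 and Dpt, which binds dermatan sulphate proteoglycans and fibrils, at 1.22 and 1.04, whereas the small proteoglycan Lum was at -0.996 and -0.824 and the matricellular Postn at -2.18 and -1.11.

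Between the mice these lists split, and most of their counts were near or below the shares of all genes past the fold, which were 35.2% for P1-like cells and 37.5% for P2-like ones. In P1-like cells, 2 of 15 processing genes were higher in Bbs8 KO (Pcolce at 1.12 and Colgalt1, which glycosylates collagen, at 0.54) and 2 lower (the prolyl hydroxylases P4ha1 at -0.625 and P3h3 at -0.609), 2 of 5 other collagens were lower and none higher, 1 of 6 receptors was lower and none higher, and of 10 fibril-associated partners 2 were higher and 3 lower. In P2-like cells, 3 of 19 processing genes were higher and 4 lower (1 and 4 with TMM or DESeq2 scaling), 2 of 6 other collagens were lower and none higher, none of 6 receptors was past the fold, and of 10 fibril-associated partners 2 were higher and 4 lower. Over all stromal cells 6 of 10 other collagens were lower in Bbs8 KO and none higher, against 35.3% of all genes past the fold either way, and 8 of 10 were lower with either TMM or DESeq2 scaling, which lowers all ratios of this comparison. Of 24 processing genes 3 were higher and 3 lower, and 1 and 9 with either scaling.

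The genes whose levels over 23 combinations of class and mouse were most like the summed collagen level were Gsn, Dpt, Serpinf1, Dcn and Igfbp6, with Pearson r of 0.977, 0.968, 0.962, 0.959 and 0.953 among 3659 genes. Gsn, Serpinf1 and Dcn were also markers used to name stromal cells. The members themselves ran from 0.91 for Col5a1 to 0.998 for Col3a1, which shares its own UMIs with the sum. The 23 points share libraries and free RNA, and the values describe the likeness of the levels only.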

How the data were processed

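Single-cell RNA-seq by Seq-Well S3 was measured in 10 barcode sets, 5 of Bbs8 KO and 5 of Bbs8 WT. Per the labels and methods, the authors demultiplexed with bcl2fastq 2.20, ran dropSeqPipe with STAR on mm10 (GENCODE vM16), equalised depth by downsampling, kept cells of 100 to 1000 genes and at most 20% mitochondrial reads, and deposited UMI counts of 14623 genes in 10914 cells. The deposited table holds 101 to 994 genes per cell. Set totals ran from 68989 to 701136 UMIs, so that low values carry wide counting error.

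Cells were clustered with Seurat 5.3.0 (2000 variable features without the 10 collagen genes, 30 dimensions, resolution 0.8, sets integrated) in R 4.3.3. Clusters under 60 cells stayed unnamed. A cluster took the name of a marker list with at least 3 markers and a mean log2 fold of 0.5 over the other cells (20 CPM added). These thresholds were set after the clusters were seen. The cluster named mural at resolution 0.8 also led with endothelial genes. Its cells that were also named mural at resolution 1.2 are the mural-like cells, and its other cells are called mixed vascular. UMIs were summed per class and mouse. Intervals at 95% (exact conditional for ratios, exact Poisson or Clopper-Pearson otherwise, scipy 1.17.1) cover counting error only. No test was run because each genotype is 1 mouse, and this replaces any count model. "Past the fold" means a log2 ratio of at least 0.5 either way among genes of at least 50 UMIs in both groups together. Shares of cells with a UMI used cells thinned to 200 UMIs. Scrublet, run in scanpy 1.11.5, marked 49 cells (0.449%), too few to count as a working doublet call, so no cell was removed and leaving out the 6% of cells with the highest scores was an alternative. Scaling was repeated with edgeR 4.0.16 (TMM) and DESeq2 1.42.0 size factors. Ratio code was checked on simulated counts.

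The 10 genes and all lists were chosen with earlier results of these data known. All 10 genes are named, and up to 4 genes per list and comparison by the size of their ratio. Promoters are RefSeq sequences of GRCm38.p6, and gene positions are from GENCODE vM21. No promoter sequence was at hand for Col1a1, Col5a2 and Col14a1, and those of Col1a2, Col6a1 and Col6a2 are not printed.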

Additional observations from a re-analysis of the deposited data

Results flagged for a closer look

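Among 66 combinations of gene, class and mouse with 5 sets, 1 had a set far from the others, where about 3.3 would be flagged by chance at 1 in 20. This was Col5a3 in P2-like cells of Bbs8 WT, where WT3_p3 was at 2290 CPM and the other 4 sets at 1890 to 1920 CPM. The value rests on 17 UMIs.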

How the results depend on the processing

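No paired analysis was possible because no result comes from a test and the replicate numbers name barcode sets of different mice, which were treated as technical. Of 3372 values recomputed under alternatives, 3190 moved by less than the spread between sets (shares within their counting interval, counts by at most 1.5 times). The sign changed in 206 of 3080 ratios, of which 2 had been past the fold, and the cause was not tested. Those 2 were of Col5a2, whose ratio for P3-like over P2-like cells went with cells called from markers to 0.1173 in Bbs8 WT and 0.0283 in both mice together. The summed level over all stromal cells, -0.3107, was -0.1173 with the collagens in the clustering, -0.0724 without integration, -0.1018 with cells called from markers, -0.5012 with TMM, -0.5209 with DESeq2 and -0.089 in P1- to P3-like cells. Without integration it was 0.275 in P1-like cells (from -0.0519) and -0.2522 for P1-like over P3-like cells, and with marker calls 0.1592 for P3-like over P2-like and -0.3174 for P1-like over P3-like cells. Clusters made without integration had no P2-like cluster and a P3-like cluster of 1427 cells, so their P3-like values are not for the same class. Neither they nor the clusters with the collagens had a marker-poor stromal cluster, so their stromal cells were P1- to P3-like only. The type VI share of mural-like cells was 17.4% without integration in Bbs8 KO, 11.1% and 10.9% with marker calls, and 8.5% and 9.92% in the mixed vascular cluster. Leaving out each Bbs8 WT set gave 15.6% to 25.0%. Leaving out each set in turn gave -0.4136 to -0.2702 over all stromal cells, -0.1179 to 0.0045 in P1-like, -0.2262 to -0.0311 in P2-like and -0.1748 to -0.0386 in P3-like cells. The number of collagen genes past the fold between the mice was 0 over all stromal cells, but 1 in P1- to P3-like cells, 1 with the collagens in the clustering and 4 with TMM or DESeq2. In P1-like cells (3 genes) it was 0 at a log2 ratio of at least 1 and 1 with the collagens in the clustering. In P2-like cells (1 gene) it was 0 at a log2 ratio of 1, with marker calls and without WT4_p2. In P3-like cells (2 genes) it was 0 at a log2 ratio of 1, at 200 UMIs per gene, with the collagens in the clustering and without integration, and 1 at 200 genes per cell, with marker calls and without WT4_p2. Between subtypes it went from 6 to 1 at a log2 ratio of 1, 2 with marker calls and 3 with TMM for P1-like and P2-like cells, from 4 to 1 at a log2 ratio of 1 and with marker calls for P3-like and P2-like cells, and from 2 to 0 at a log2 ratio of 1, 1 at 200 genes per cell, with marker calls, TMM or DESeq2, and 5 without integration for P1-like and P3-like cells.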
